A study of Mus musculus with 24 samples.

Results

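Ubqln4, Pelp1 and Mettl1 were examined in epididymal white adipose tissue (eWAT). They stood near the head of the genes ordered by nominal p-value for a diet response that differed with genotype. The members were chosen by that interaction of diet and genotype, so they are 3 of the 16730 genes in the deposited tables and their values in that comparison are given below as a description, with no test. In the order of the interaction p-values among genes that met the calling criteria they held places 1, 2 and 5. Plxnd1, a semaphorin receptor, and the predicted gene Gm43581 held places 3 and 4 with interaction values of −1.08 and −1.97 on the log2 scale, and Mthfsl (1.41) and Stoml2 (−1.19) held places 6 and 7.

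RNA was measured in 24 male mice, with 1 QuantSeq library per mouse and 6 mice per group. Lama4 fl/fl and Lama4 AKO mice received a breeder chow for 20 weeks (the chow fl/fl and chow AKO groups), or a high-fat diet (HFD) with 45% fat for the same time (the HFD fl/fl and HFD AKO groups). All mice carried Lama4 alleles with loxP sites around exon 3, including the controls that the labels call wild type, and AKO mice also carried a Cre transgene under the adiponectin promoter, which acts in adipocytes but not in the vessels and immune cells of the fat pad. The line was made from targeted C57BL/6N-PRX-B6N #1 embryonic stem cells in C57BL/6J-Tyrc-2J blastocysts and bred to C57BL/6J mice, the mice were adult littermates, and the chow and the high-fat diet differed in more than their fat. The study describes different ages at diet start and at collection for chow-fed and HFD-fed mice, so age and diet cannot be told apart. QuantSeq reads the 3′ end of a transcript, away from exon 3, so its counts on Lama4 do not check the deletion itself, and whether the deletion changes the amount of that end was not tested. Lama4 had medians of 91.7 CPM in chow fl/fl, 113 in chow AKO, 78.7 in HFD fl/fl and 44.3 in HFD AKO libraries, with overlapping ranges. The libraries labelled knockout thus had the higher median on chow and the lower one on HFD, and the genotype names used here are those of the labels. By quantitative PCR the study reported lower Lama4 RNA in eWAT of chow-fed AKO mice than in controls.

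The 3 genes encode proteins of unrelated pathways. UBQLN4 belongs to the ubiquilins, shuttle proteins with a ubiquitin-like domain that docks on the proteasome and a ubiquitin-binding domain that carries the cargo, and it is also known for removing the MRE11 nuclease from damaged chromatin. PELP1 is a scaffold that binds estrogen and other nuclear receptors as a coregulator and that, with TEX10, WDR18, LAS1L and SENP3, works in the maturation of the large ribosomal subunit in the nucleolus. METTL1 is the catalytic subunit of the methyltransferase that, together with WDR4, places N7-methylguanosine in the variable loop of a set of tRNAs and so stabilizes them.

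In GRCm38, Ubqln4 (ENSMUSG00000008604) lies on the forward strand of chromosome 3 from 88553758 to 88569725, with 11 exons. Pelp1 (ENSMUSG00000018921) lies on the reverse strand of chromosome 11 from 70392883 to 70410031, with 17 exons. Mettl1 (ENSMUSG00000006732) lies on the forward strand of chromosome 10 from 127041414 to 127046365, with 6 exons. The genes sit on 3 chromosomes and were chosen by the same interaction, so their likeness between groups follows in part from the choice. Their promoters are shown to let a reader look for what the sequences share, and a shared control was not tested. Each holds 250 bases before and 50 after the transcript start of RefSeq (GRCm38.p6), 5′ to 3′ on the strand of the gene, at chr3:88553466-88553765 (+) for Ubqln4, chr11:70409982-70410281 (−) for Pelp1 and chr10:127041682-127041981 (+) for Mettl1. Capitals mark the GC box (GGGCGG), the E-box (CACGTG) and the core of the cyclic AMP response element (TGACG) on either strand. That core is only a part of the element, and the whole element was not searched for.
Ubqln4: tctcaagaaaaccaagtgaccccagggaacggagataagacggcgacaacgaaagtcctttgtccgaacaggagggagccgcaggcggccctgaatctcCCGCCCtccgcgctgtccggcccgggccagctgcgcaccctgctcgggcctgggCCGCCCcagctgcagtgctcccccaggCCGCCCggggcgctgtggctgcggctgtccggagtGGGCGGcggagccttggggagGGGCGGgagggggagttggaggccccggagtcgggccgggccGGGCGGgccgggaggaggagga
Pelp1: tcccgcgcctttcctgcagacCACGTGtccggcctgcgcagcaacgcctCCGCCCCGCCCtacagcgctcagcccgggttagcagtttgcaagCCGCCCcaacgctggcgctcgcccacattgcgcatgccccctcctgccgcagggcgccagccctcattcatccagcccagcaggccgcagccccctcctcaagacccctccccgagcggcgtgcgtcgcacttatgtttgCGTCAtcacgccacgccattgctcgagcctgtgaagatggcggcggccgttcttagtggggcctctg
Mettl1: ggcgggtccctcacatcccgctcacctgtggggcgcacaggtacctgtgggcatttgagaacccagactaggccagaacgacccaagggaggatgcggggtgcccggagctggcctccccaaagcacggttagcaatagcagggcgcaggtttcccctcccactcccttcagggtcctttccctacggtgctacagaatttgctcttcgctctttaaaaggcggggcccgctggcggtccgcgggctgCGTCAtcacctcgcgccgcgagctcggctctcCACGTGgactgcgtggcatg

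The RefSeq start of Pelp1 is that of the GENCODE M21 gene, whereas those of Ubqln4 and Mettl1 lie 42 and 518 bases from the GENCODE starts. All 3 promoters were rich in G and C, with 73.3% in Ubqln4, 68.7% in Pelp1 and 64.7% in Mettl1 against a median of 52.7% over 32851 mouse promoters of the same length. Their ratios of observed to expected CpG were 0.731, 0.897 and 0.735, against a median of 0.384. Counted from the start site on the strand of the gene, Ubqln4 held 6 GC boxes (−151, −97, −70, −35, −14 and 29) and no E-box. Pelp1 held 3 GC boxes (−201, −196 and −157, of which the first pair overlap), an E-box at −229 and a cyclic AMP response element core at −17. Mettl1 held an E-box at 31 and a cyclic AMP response element core at −2, and no GC box. The longest run shared by Pelp1 and Mettl1, the 11 bases tgcgtcatcac around that core, was in 13 of the 32851 promoters (0.0396%), and the longest runs Ubqln4 shared with the others had 9 bases. That run was picked as the longest of its pair, so its share of promoters does not measure chance. How often a pair of promoters shares a run that long was not examined. Of all promoters, 35.7% held a GC box, 7.15% an E-box and 20.8% the cyclic AMP response element core. Other motifs searched were the CCAAT box (CCAAT, in 37.4% of promoters), the TATA box (TATAAA, 13.6%), the ETS core (CCGGAAG, 8.86%) and the nuclear receptor element core (AGGTCA, 16.3%), which matched none of the 3 windows, and the NRF1 core (TGCGCATGC, 1.52%) and YY1 core (AAGATGGCG, 1.40%), which each matched Pelp1 alone. No motif was in all 3 windows, and these matches are letters in a window, with no binding measured.

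Libraries held 5579590 to 18764516 counts, and the 3 genes had between 140 and 532 counts in a library. On the first principal component, which held 45.8% of the variance of all genes, HFD fl/fl replicates 3, 4 and 6 lay at −9.88, −76.1 and −60.4, while the other libraries of that group lay at 73.5, 48.3 and 48.2. Replicate 3 of the chow fl/fl group lay at 46.8 and replicate 5 of the chow AKO group at 22.1, each the highest of its group. The interaction is given with and without these 5 libraries. All 9 adipocyte markers listed (Adipoq, Plin1, Fabp4 and others) were detected, and their summed level ran from 18376 to 46495 CPM in chow fl/fl, 16469 to 38092 in chow AKO, 8808 to 42770 in HFD fl/fl and 9203 to 25623 in HFD AKO libraries. For the 8 macrophage markers, all detected, the ranges were 1345 to 9287, 1961 to 8042, 1872 to 11433 and 6419 to 11716 CPM in the same order. Group medians of the macrophage list (6507, 3556, 6379 and 9081 CPM) and of 5 stromal progenitor markers (3444, 2885, 3083 and 3742 CPM) moved against the 3 genes in all 4 comparisons within a diet or genotype. Medians of 5 mesothelial markers (41.6, 52.5, 46.9 and 29.4 CPM) and 4 hemoglobin genes (2845, 3405, 3048 and 2245 CPM) moved with them in all 4, and the adipocyte list did so in 2. The ranges of all these lists overlapped between groups, and the part of these cells in the results was not tested. In bulk tissue, fewer cells of a type and less RNA per cell cannot be told apart.

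Ubqln4 was lowest in chow fl/fl and HFD AKO mice and 1.54 to 1.68 times higher in both other groups, so that HFD went with more Ubqln4 in Lama4 fl/fl and with less in Lama4 AKO mice. In chow fl/fl libraries its level ran from 13.6 to 20.7 CPM with a median of 16.4. In chow AKO libraries the lowest value was 20.96, the median 25.2 and the highest 35.0. All 6 values of the latter group lay above all 6 of the former, with a gap between 20.72 and 20.96. The rule chose genes on these group means, so a lack of overlap follows in part from the choice. The share of all genes with such gaps was not counted, here or for the other members. In HFD fl/fl libraries Ubqln4 ran from 20.4 to 32.5 CPM with a median of 30.6, and in HFD AKO libraries from 14.3 to 23.3 with a median of 16.1. The HFD-fed groups overlapped: replicate 2 of the HFD AKO group, at 23.3, lay above replicates 2 and 3 of the HFD fl/fl group (20.4 and 22.3). Group means were 16.8 ± 2.79, 26.2 ± 5.31, 28.1 ± 5.32 and 17.1 ± 3.38 CPM (SD, n = 6) for chow fl/fl, chow AKO, HFD fl/fl and HFD AKO.

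Pelp1 followed the same order of group means over a smaller range. It ran from 18.3 to 24.4 CPM (median 20.5) in chow fl/fl, from 23.9 to 30.4 (27.3) in chow AKO, from 21.7 to 31.4 (27.7) in HFD fl/fl and from 19.1 to 23.6 (20.7) in HFD AKO libraries. The pair without overlap was that of the Lama4 AKO mice, where every chow-fed library lay above every HFD-fed one, a gap that the choice of genes favours. Among Lama4 fl/fl mice 34 of the 36 pairs of an HFD-fed and a chow-fed library were higher on HFD, the exceptions involving replicate 5 of the HFD-fed group at 21.7 CPM. Means were 20.7 ± 2.36, 27.4 ± 2.47, 27.6 ± 3.56 and 20.99 ± 1.56 CPM (SD, n = 6) in the same order of groups.

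Mettl1 had the most uneven crossing. Its level ran from 13.7 to 20.8 CPM (median 16.4) in chow fl/fl, from 20.8 to 29.7 (25.0) in chow AKO, from 20.9 to 30.7 (24.8) in HFD fl/fl and from 17.0 to 22.3 (20.2) in HFD AKO libraries. Chow fl/fl libraries lay below all chow AKO and all HFD fl/fl libraries, with the highest chow fl/fl value (20.78) just under the lowest values of those groups (20.82 and 20.90). The choice of genes favours such gaps, and nothing is read from them. HFD AKO libraries overlapped every other group. Group means were 16.8 ± 2.51, 24.8 ± 3.16, 24.8 ± 3.79 and 20.1 ± 1.87 CPM (SD, n = 6).

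In all 3 genes the group means rose in the order chow fl/fl, HFD AKO, chow AKO and HFD fl/fl. By medians, Ubqln4 was lower in HFD AKO (16.1 CPM) than in chow fl/fl libraries (16.4). The Mettl1 median was higher in chow AKO (25.0) than in HFD fl/fl libraries (24.8). The steps from the lowest group to the next (0.313 CPM in Ubqln4 and 0.276 in Pelp1) and between the highest groups (1.88, 0.154 and 0.0587 CPM in Ubqln4, Pelp1 and Mettl1) were smaller than the larger SD of the groups compared. For Mettl1 the lowest step, 3.25 CPM, was larger than the SD of 2.51, with ranges that overlapped. The middle step, from HFD AKO to chow AKO, was 9.14, 6.45 and 4.69 CPM and exceeded the larger SD in each gene. Genes chosen by the interaction tend to have such a step, so nothing is read from its size. Counting error alone, taken from the mean count of a group, would give a coefficient of variation of 4.92% to 7.14%, while the libraries of a group varied by 7.45% (Pelp1 in HFD AKO) to 20.3% (Ubqln4 in chow AKO). No library was an outlier of its group for any of the 3 genes by Dixon's test.

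**Figure D1:**
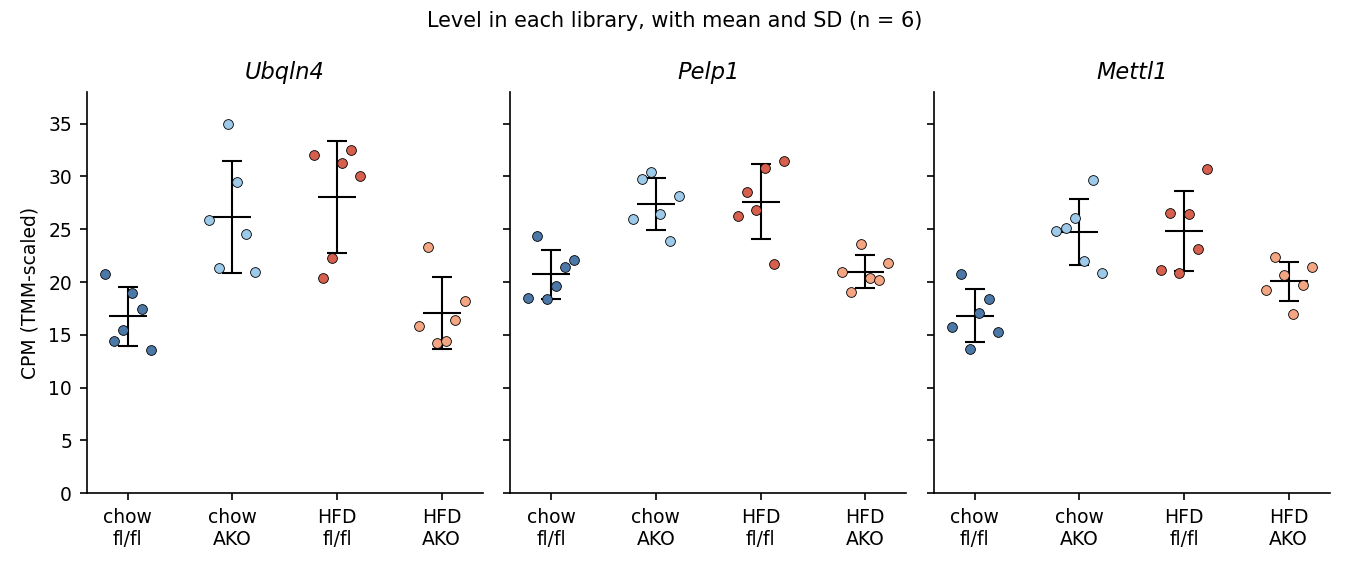
Level of Ubqln4, Pelp1 and Mettl1 in CPM (vertical axis) in each of the 24 libraries, by group, with points in replicate order from left to right and the mean and SD of 6 libraries. In each gene both middle groups sit above both outer ones, with Ubqln4 means of 26.2 and 28.1 against 16.8 and 17.1 CPM; heights are not comparable between genes.

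Set against one another, the group means crossed with little net change. On HFD, Ubqln4 was 0.75 higher in Lama4 fl/fl mice and 0.62 lower in Lama4 AKO mice on the log2 scale, so the interaction was −1.36 (standard error 0.226). For Pelp1 the values were 0.41 in Lama4 fl/fl mice, −0.39 in Lama4 AKO mice and −0.80 ± 0.149 (SE) for the interaction. For Mettl1 they were 0.56, −0.30 and −0.86 ± 0.173 (SE). Read across genotypes, Lama4 AKO mice had higher levels on chow by 0.65, 0.41 and 0.56, and lower levels on HFD with values of −0.72, −0.39 and −0.31, for Ubqln4, Pelp1 and Mettl1. These 4 contrasts hold the same libraries as the interaction and add nothing independent to it.

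By the criteria of the study (1.5-fold or more, nominal p-value up to 0.001, and 2 CPM or more on average in the higher group), 58 of 15020 genes tested (0.386%) were called in the interaction, 39 with lower and 19 with higher values. With size factors of the RLE kind 45 were lower and 8 higher, without the filter on low counts 48 were lower and 9 higher, and with limma-voom 24 were lower and 30 higher, so the side with more genes depended on the tool. The criteria use a nominal p-value. Of the called genes other than the 3 members, none had an adjusted p-value of 0.05 or less from edgeR. The members are not tested in this contrast. All 3 members are among the 58 because the rule put them there. Of the 58 genes, 37 had the form of these 3 (higher on HFD in Lama4 fl/fl and lower in Lama4 AKO), 16 had the opposite form and 5 had the same sign in both genotypes. The 37 include the 3 members. A call on the difference between the diet effects favours opposite signs, and the forms over all genes were not counted. At an unadjusted p-value under 0.05, 15.6% of all genes passed in the interaction. The 4 comparisons within a diet or a genotype rest on the group means that chose the members, so nothing is read from where the members fall in them. Ubqln4 lay past the same criteria in all 4, where the shares of all genes were 0.173% for diet in Lama4 fl/fl, 4.12% for diet in Lama4 AKO, 0.113% for genotype on chow and 0.173% for genotype on HFD. Pelp1 and Mettl1 did so in none of the 4, since their folds were 1.31 to 1.33 for Pelp1 and 1.23 to 1.48 for Mettl1.

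Without the 5 libraries the interaction was −1.37 for Ubqln4, −0.69 for Pelp1 and −0.68 for Mettl1. The diet effect of Pelp1 in Lama4 fl/fl mice was then 0.27 instead of 0.41. Its averaged values, which were near 0 with all libraries, moved to −0.08 for diet, which turned the sign, and 0.06 for genotype (adjusted p = 0.428 and 0.881 from edgeR). Across the fits that left out 1 library each, the interaction ran from −1.51 to −1.26 for Ubqln4, from −0.89 to −0.76 for Pelp1 and from −0.94 to −0.79 for Mettl1.

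The averaged effects of diet and of genotype are balanced against the interaction in this design and were not used to choose the genes, so they were tested. Their standard errors rest on the spread within groups, which also entered the interaction p-values. No member passed edgeR's quasi-likelihood test at an adjusted p-value of 0.05 for diet, where 12.4% of all genes passed, or for genotype, where 0.00666% did, a single gene. That gene was Zfp949, named here after its values were seen. Averaged over genotypes, the HFD-to-chow difference was 0.06 for Ubqln4 (95% confidence interval −0.17 to 0.30, adjusted p = 0.708 from edgeR), 0.01 for Pelp1 (−0.14 to 0.17, adjusted p = 0.913 from edgeR) and 0.13 for Mettl1 (−0.05 to 0.31, adjusted p = 0.277 from edgeR) on the log2 scale. Averaged over diets, the AKO-to-fl/fl difference was −0.04 for Ubqln4 (−0.27 to 0.20), 0.01 for Pelp1 (−0.15 to 0.16) and 0.12 for Mettl1 (−0.06 to 0.30), with adjusted p-values of 0.981, 0.996 and 0.953 from edgeR. None of the 3 passed an unadjusted p-value of 0.05 in either test, whereas 35.5% of all genes did for diet and 4.6% for genotype, and none was called by limma-voom or DESeq2. The upper ends of the intervals stand at 0.31 or less, which is under the log2 value of the fold change of 1.5 that the criteria ask for, and an averaged difference inside these intervals could not be told from 0 with this number of mice.

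**Figure D2:**
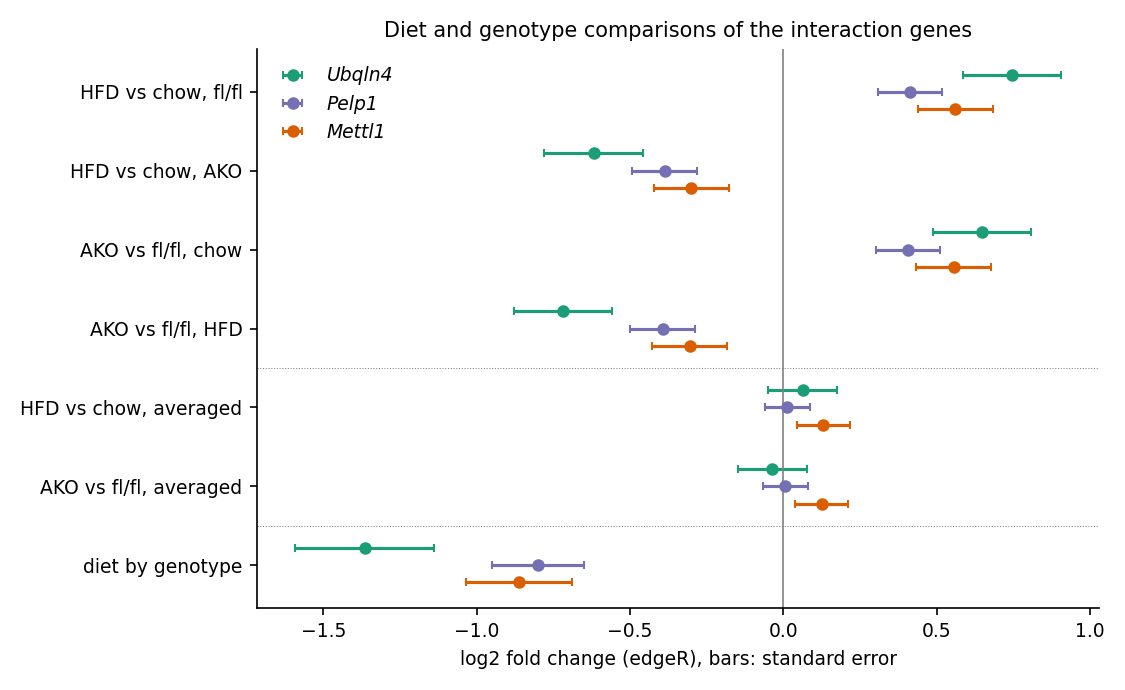
Log2 fold changes with standard errors (horizontal axis) for Ubqln4, Pelp1 and Mettl1 in the comparisons within a genotype or diet, in both averaged comparisons and in the interaction. The 4 comparisons at the top alternate in sign, the averaged ones lie between −0.04 and 0.13, and the interaction runs from −1.36 for Ubqln4 to −0.80 for Pelp1.

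Whether the 3 genes also varied together among mice of 1 group was examined in the spread within groups, with group means removed. The size of that spread in each gene entered its interaction p-value, whereas the relation between genes did not. Pelp1 and Mettl1 had a Pearson r of 0.397 and a Spearman rho of 0.393 over 24 libraries (permutation p = 0.0944 and 0.0858, adjusted p = 0.281 and 0.292 over 6 relations). Leaving out the 2 libraries farthest from the median of Pelp1 gave an r of 0.262. Ubqln4 and Pelp1 had an r of −0.289 and a rho of −0.333 (permutation p = 0.212 and 0.146, adjusted p = 0.281 and 0.292), and an r of −0.383 without the 2 farthest libraries. Ubqln4 and Mettl1 had an r of 0.186 and a rho of 0.215 (permutation p = 0.416 and 0.352, which the adjustment left as they were), and 0.0689 without the 2 farthest. No pair of members passed, and the sign of the Ubqln4 relations differed between groups: with Pelp1, r was −0.636, 0.141, −0.189 and −0.621 in chow fl/fl, chow AKO, HFD fl/fl and HFD AKO libraries. Pelp1 with Mettl1 gave 0.756, −0.329, 0.647 and 0.0349 in that order, each from 6 libraries.

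Along the first principal component, within groups, Ubqln4 had an r of −0.342 (rho −0.260), Pelp1 −0.399 (rho −0.374) and Mettl1 −0.293 (rho −0.256). Their permutation p-values were 0.143, 0.114 and 0.234 for r and 0.282, 0.110 and 0.282 for rho, and adjusted over the 6 relations they were 0.281 for each r and 0.338, 0.292 and 0.338 for rho. Without the 2 libraries farthest on the component, r was −0.199, −0.521 and −0.350. Without the 5 libraries it was −0.414, 0.255 and −0.168, so the sign of the relation with Pelp1 rested on those libraries.

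The same was done for the summed levels of 8 marker lists and the mitochondrial share of counts, 27 relations chosen after the group medians were seen. None passed after adjustment over the 27 (adjusted p of 0.375 or more for r and 0.445 or more for rho). The summed macrophage level had an r of −0.504 and a rho of −0.454 with Ubqln4 inside groups (permutation p = 0.0207 and 0.0484), and an r of −0.405 without the 2 libraries farthest on the marker sum. The mitochondrial share had an r of 0.497 and a rho of 0.426 with Ubqln4 (permutation p = 0.0278 and 0.0611), and 0.364 without the 2 farthest. Pelp1 had an r of −0.479 and a rho of −0.318 with the stromal progenitor sum (permutation p = 0.0489 and 0.177), and −0.354 without the 2 farthest. With the mast cell sum its r was −0.466 and its rho −0.415 (permutation p = 0.0608 and 0.0670), and −0.466 without the 2 farthest. The other 23 had r between −0.370 and 0.387.

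**Figure D3:**
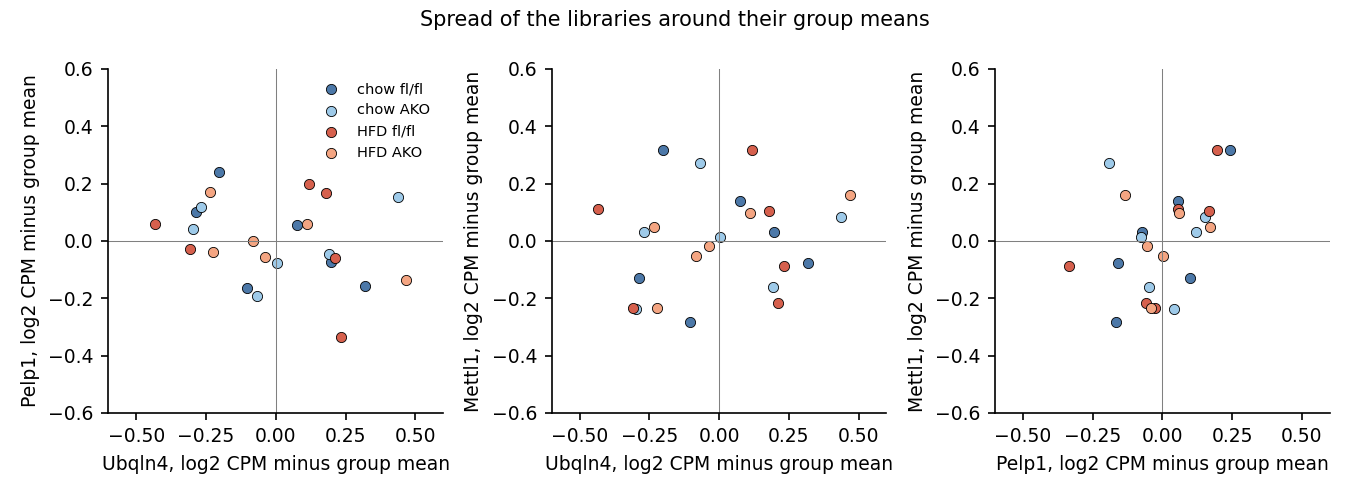
Log2 CPM minus the group mean for each pair of Ubqln4, Pelp1 and Mettl1 in 24 libraries, colored by group. Points scatter around the origin with r of −0.289 for Ubqln4 and Pelp1, 0.186 for Ubqln4 and Mettl1 and 0.397 for Pelp1 and Mettl1, and no relation passed after adjustment.

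Over the 24 libraries, without removing group means, the genes most like each member were ranked by Pearson r of log2 CPM, as a description in which points share a group and a library. For Ubqln4 they included Zbtb7b (r = 0.853), a zinc finger transcription factor, Abcb8 (0.840), a transporter of the inner mitochondrial membrane, Eya2 (0.825), a phosphatase and transcriptional coactivator, and Palm (0.823), a membrane-associated phosphoprotein. These 4 kept an r between 0.661 and 0.840 with Ubqln4 inside groups, a value that the choice of genes by their total r partly fixes. Zbtb7b lies on the same chromosome, 807918 bases from Ubqln4, and the other 3 lie elsewhere. Their interaction values ran from −1.22 (Palm) to −0.66 (Abcb8).

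For Pelp1 the list opened with Mettl1 (0.750), followed by Ap3d1 (0.727), a subunit of an endosomal adaptor complex, Cdkn1a (0.707), the cell cycle inhibitor p21, Ppp2r5b (0.703), a regulatory subunit of a protein phosphatase, and Unc119 (0.699), a carrier of acylated proteins. For Mettl1 it held Pelp1 (0.750), Creb3l1 (0.749), a transcription factor released from the endoplasmic reticulum, Sipa1l3 (0.691), a regulator of small GTPases, Ubqln4 (0.664) and Plxnd1 (0.657). Inside groups Mettl1 kept an r of 0.608 with Creb3l1 and 0.0483 with Plxnd1, so its likeness to Plxnd1 came from the group means. Pelp1 stood at place 413 for Ubqln4 (r = 0.563), with genes such as Palm far nearer.

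Ubqln1 and Ubqln2, the other ubiquilins tested, did not pass in any comparison. Ubqln1 had means of 155, 179, 155 and 127 CPM in chow fl/fl, chow AKO, HFD fl/fl and HFD AKO libraries and an interaction value of −0.49 ± 0.253 (SE). Ubqln2 had means of 26.7, 32.1, 34.4 and 35.6 CPM and an interaction value of −0.22 ± 0.493 (SE), with libraries from 7.37 to 46.2 CPM within the HFD fl/fl group alone. Ubqlnl was not analysed here. Of 21 other shuttle factors, proteasome receptors and VCP and BAG6 partners tested, none was called in the interaction (median −0.06 against −0.03 over all genes). Averaged over genotypes, Rad23b, a shuttle with the same domain plan as the ubiquilins, rose by 0.49 on HFD (adjusted p = 0.0391 from edgeR). In the MRE11 complex, Rad50 fell on HFD by 0.77 when averaged over genotypes (adjusted p = 0.0319 from edgeR) and met the study criteria in Lama4 AKO mice, where its mean went from 169 to 63.9 CPM (log2 change −1.40). Mre11a and Nbn had averaged values of −0.32 and −0.39 that did not pass, and interaction values of −0.0046 and 0.00431. The interaction value of Rad50 was −1.26 ± 0.433 (SE), on the side of the members, with a nominal p of 0.00769 from edgeR that missed the criterion.

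None of the 6 tested partners of Pelp1 in ribosome maturation was called in the interaction. Tex10, Wdr18, Nol9 and Mdn1 had interaction values of 0.09, −0.15, −0.07 and 0.15. Senp3, the SUMO protease of the complex, had its higher means in the same groups as Pelp1 (7.69, 17.1, 13.8 and 7.48 CPM) and an interaction value of −2.04 ± 0.605 (SE) with a nominal p of 0.00254 from edgeR, which missed the criterion. Its chow AKO libraries spread from 4.49 to 42.1 CPM and so overlapped every other group. Las1l, the nuclease of the complex, fell by 0.58 on HFD averaged over genotypes (adjusted p = 0.0321 from edgeR) and met the study criteria in Lama4 AKO mice, with a mean of 22.03 CPM on HFD against 41.6 on chow. Its interaction value was −0.68 ± 0.325 (SE), with a nominal p of 0.0469 from edgeR, which also missed the criterion.

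All 12 nuclear receptors, coregulators and signaling proteins listed as binding PELP1 had negative interaction values, from −1.197 for Esr1, the estrogen receptor, to −0.04 for Carm1, with a median of −0.40. None of the 12 was called, and 52.2% of all genes had a negative interaction value. Rxra, a receptor that pairs with PPARG, had the lowest p-value of the list, with means of 52.2, 63.6, 65.9 and 52.4 CPM and a value of −0.62 ± 0.242 (SE). The deacetylase Hdac2 and the demethylase Kdm1a fell on HFD averaged over genotypes by 0.35 and 0.69 (adjusted p = 0.0358 and 0.0440 from edgeR).

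Wdr4, whose product holds METTL1 on its tRNAs, had its higher means in both HFD groups. Its libraries ran from 7.19 to 14.6 CPM in chow fl/fl, 9.02 to 11.4 in chow AKO, 8.13 to 18.7 in HFD fl/fl and 10.4 to 17.7 in HFD AKO mice. It rose by 0.50 ± 0.134 (SE) on HFD averaged over genotypes (adjusted p = 0.0295 from edgeR), and its interaction value was −0.07 ± 0.267 (SE), against −0.86 for Mettl1. Among 29 other tRNA methylation genes tested, none was called in the interaction (median −0.02), 14 values being positive and 15 negative. Trmt2a rose by 0.49 and Nsun6 fell by 0.55 on HFD averaged over genotypes (adjusted p = 0.0327 and 0.0432 from edgeR). Trmt112, an activating partner of several methyltransferases, met the study criteria for a fall of 0.81 on HFD in Lama4 AKO mice, and its interaction value of −0.91 had the lowest p-value of the list.

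Taking the lists as 1, 9 of 74 genes tested (12.2%) passed for averaged diet, 4 higher and 5 lower, which is near the 12.4% of all genes, and 0 of 74 were called in the interaction by edgeR, with 10 of them (13.5%) at an unadjusted p-value under 0.05 against 15.6% of all genes. These diet calls were not stable. Leaving out replicate 1 or 5 of the HFD fl/fl group, replicate 3 of the chow AKO group or replicate 4 of the chow fl/fl group ended all 9 of them, each was lost in 6 to 17 of the 24 fits without 1 library, and adjusted p-values reached 0.0809. The study criteria for diet in Lama4 AKO mice were met by 3 of the 74 genes (4.05%, against 4.12% of all genes), Rad50 in all 24 of these fits, and Las1l and Trmt112 in all but 7 and 10, each of which lacked 1 library of an AKO group. The call of Trmt112 also ended without the 5 libraries, and that of Las1l with the replicate number as a block. All 9 averaged diet calls held without the 5 libraries, in a fit that called 7718 of 14863 genes, so this does not support the 9.

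**Figure D4:**
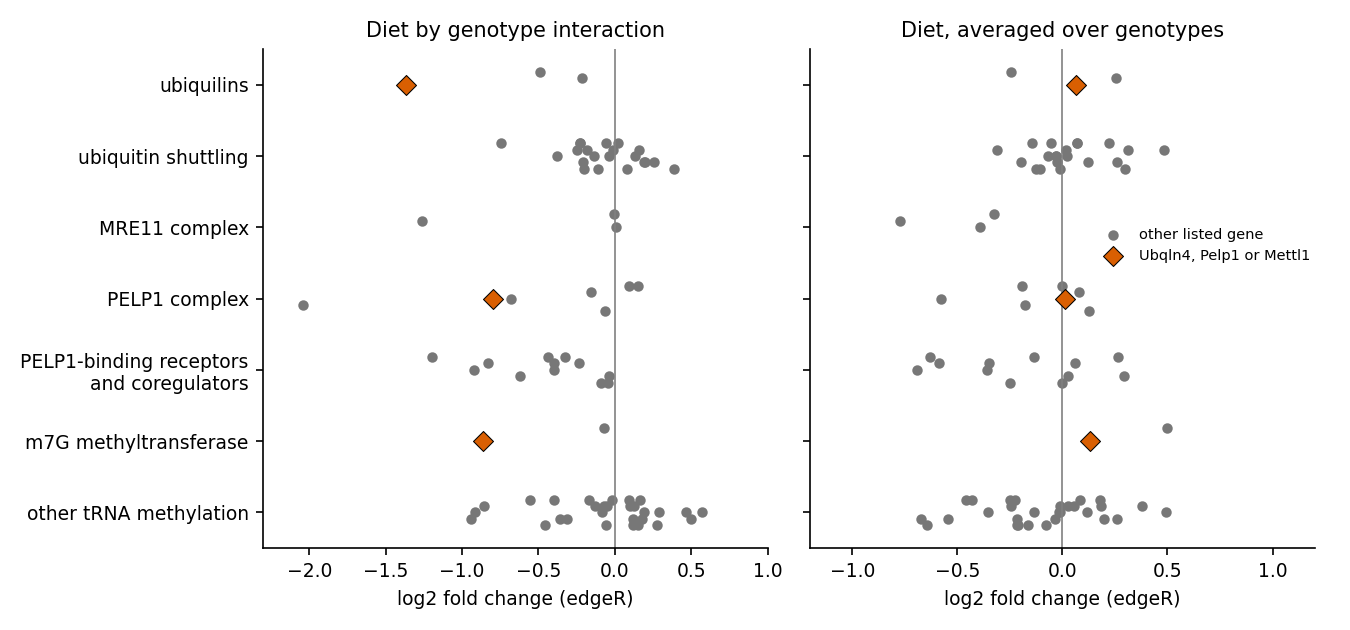
Log2 fold change (horizontal axis) of each gene of 7 lists in the interaction of diet and genotype and in diet averaged over genotypes, with Ubqln4, Pelp1 and Mettl1 as diamonds. The 3 diamonds lie at −1.36, −0.80 and −0.86 on the left and within 0.13 of 0 on the right, while Wdr4, the other gene in the methyltransferase row, lies at −0.07 and 0.50.

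The genes next to the members were read for a shared local pattern. Lamtor2, a lysosomal scaffold subunit that starts head to head with Ubqln4 at a distance of 683 bases, had means of 27.0, 29.4, 30.2 and 22.2 CPM and an interaction value of −0.57 ± 0.200 (SE). Ssr2, 6150 bases beyond the other end of Ubqln4, had an interaction value of −0.33 ± 0.156 (SE). Beside Pelp1, Alox15 had −1.25 ± 0.907 (SE) and Arrb2 0.51 ± 0.491 (SE), and beside Mettl1, Tsfm had −0.59 ± 0.303 (SE) and Marchf9 0.39 ± 0.406 (SE). None of the 6 neighbours was called in any comparison, and a test of neighbours against members was not run. Mettl1 overlaps Eef1akmt3, a methyltransferase gene on the opposite strand, over 100 bases that lie outside the last exon of Mettl1, and the sources used here do not give whether counting used strand. Eef1akmt3 had means of 1.42, 1.63, 2.62 and 3.56 CPM, an order that differs from that of Mettl1, with an averaged rise of 1.02 on HFD (adjusted p = 0.0318 from edgeR) that was lost in 8 of the 24 fits without 1 library, with adjusted p-values up to 0.0665.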

How the data were processed

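The authors extracted RNA from flash-frozen eWAT, made Lexogen QuantSeq libraries with 50-base forward reads, and aligned and counted them with the QuantSeq pipeline on GRCm38. They deposited unnormalized read counts for every gene in each library, and a second table whose deposited signal is those counts after division by a size factor of the library. The submitters' processing notes name R 4.0.3 and DESeq2 1.30. The second table was used for symbols and positions only, and 13948 of its 14067 positions equal those of GENCODE M21. Both tables hold 16730 genes with at least 72 counts in all, and library totals lie between 5579590 and 18764516 counts, so counting error was below the spread between mice for the 3 genes. Neither table holds columns of the authors' own comparisons.

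For the present work edgeR 4.0.16 was run in R 4.3.3. The 15020 genes that reached 1 CPM in 3 or more libraries were kept, scaled with TMM factors and fitted with 1 coefficient per group and a quasi-likelihood test over all 24 libraries, with p-values adjusted by Benjamini and Hochberg over all genes tested. Levels are CPM on TMM-scaled library sizes, and log2 CPM used a prior count of 2. Each library is 1 mouse. The members and gene lists were chosen with earlier results of these data known, so the interaction and the 4 comparisons within a diet or genotype are descriptions for the 3 genes, and the averaged contrasts were tested. Genes named are the 3 members, Lama4, every gene of the ubiquilin, PELP1 complex and methyltransferase lists, of other lists each gene called in any comparison and otherwise the one with the lowest interaction p, the 5 genes most like each member, the nearest gene on each side, and the genes beside the members in the interaction order. Some genes that this rule names are not reported here.

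Relations used group-centred log2 CPM and two-sided permutation tests with 100000 permutations within groups (scipy 1.17.1). The 27 relations with marker sums and the mitochondrial share were chosen after seeing the data. No pair of libraries in a group was alike within counting error (lowest chi-square per degree of freedom 6.07). On counts simulated from these libraries with 200 changed genes, the averaged diet contrast recovered 191 of 200 genes at a log2 change of 1.5. It gave 6 false calls among 14834 genes. The interaction recovered 185 of 200 at 2.5, with 19 false calls among 14824. Recovery at smaller sizes was not tested, which includes the interaction values of Ubqln4, Pelp1 and Mettl1 (−1.36, −0.80 and −0.86). Alternatives were limma-voom (limma 3.58.1), DESeq2 1.42.0, RLE size factors, no filter, filterByExpr, the replicate number as a block, each library left out, and 5 libraries left out that earlier work on these data inferred the study set aside. Promoters come from RefSeq, with 32851 windows of 300 bases. Protein sequences were not used here.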

Additional observations from a re-analysis of the deposited data

Results flagged for a closer look

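Lama4 in replicate 6 of the HFD AKO group stood at 6.53 on the log2 CPM scale (92.5 CPM) and lay apart from the other libraries of its group, with a gap to the nearest of 0.689 of the group's range. It was the one value to do so among 32 highest and lowest values examined for the 3 members and Lama4, where chance gives about 1 in 20 groups, and no value of the 3 members did.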

How the results depend on the processing

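For Ubqln4, Pelp1 and Mettl1 the sign of the interaction was kept and no averaged effect was called under any alternative run. Counts over all genes moved more. DESeq2 called 3284 genes for averaged diet against 1859, 4 for averaged genotype against 1, 148 in the interaction against 58, 60 for diet in Lama4 fl/fl against 26, 1315 for diet in Lama4 AKO against 619, 41 for genotype on chow against 17 and 81 for genotype on HFD against 26, and limma-voom called 2 for averaged genotype. Without the 5 libraries the counts were 7718, 101, 1750, 2332, 31 and 84 for averaged diet, the interaction, diet in Lama4 fl/fl, diet in Lama4 AKO, genotype on chow and genotype on HFD. Leaving out 1 library gave 437 (HFD fl/fl replicate 5) to 3785 (chow fl/fl replicate 3) genes for averaged diet, 1 to 2 for averaged genotype, 29 (chow AKO replicate 3) to 188 (chow fl/fl replicate 1) for the interaction, 14 to 63 and 299 to 1169 for diet in Lama4 fl/fl and AKO, and 4 to 65 and 13 to 91 for genotype on chow and HFD. Within groups, r was −0.56 for Ubqln4 and Pelp1 without the 5 libraries (unadjusted permutation p = 0.0311) and −0.52 for the first principal component and Pelp1 without the 2 farthest libraries (unadjusted permutation p = 0.0397), but 0.255 for that pair without the 5 libraries (unadjusted permutation p = 0.338), with the sign turned. With 1 library left out, r ran from 0.282 to 0.570 for Pelp1 and Mettl1, from −0.574 to −0.323 for the component and Pelp1 and from −0.456 to −0.253 for the component and Ubqln4. The cause of these shifts was not tested.

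Replicate numbers are shared between groups, but same-numbered libraries did not deviate together: over 36 pairs r ran from −0.534 to 0.714 with a median of 0.00112, and 15 exceeded 0.1. With the number as a replicate block, 810 genes were called for averaged diet, 32 in the interaction and 10 for genotype on chow, and the averaged diet calls of Hdac2, Trmt2a, Wdr4, Nsun6, Rad23b, Kdm1a, Las1l and Eef1akmt3 ended (adjusted p 0.0503 to 0.0721), as did the call of Las1l for diet in Lama4 AKO mice. The call of Trmt112 there ended without the 5 libraries, and that of Kdm1a for averaged diet with limma-voom (adjusted p = 0.0598). Each group holds 6 mice of 1 sex with 1 stated time on diet, and the 3 genes rest on 140 to 532 counts a library. Age differed with diet by the study's description.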
